A study of Mus musculus with 24 samples.

Results

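The mRNAs of the large (60S) subunit of the cytosolic ribosome were followed in mouse N2a neuroblastoma cells, by RNA-seq and by ribo-seq, with and without the mTOR inhibitor Torin1 and with and without eIF4E3. The set holds 46 transcripts, 1 for each of the listed Rpl and Rplp genes, found by gene symbol, of 12759 transcripts in the count tables. The list was set with earlier results of these data known. All 46 were present in each of the 8 tables and all 46 passed the filter on low counts in every comparison. The cells were transfected either with the empty CRISPR/Cas9 vector (ctrl) or with the same vector carrying guides against Eif4e3 (KO), selected with puromycin and used as a pool of cells rather than as 1 clone. They were seeded 48 h before and treated for 2 h with 250 nM Torin1 or with its solvent DMSO, in 3 replicates that were different passages. RNA-seq gave 3 libraries for each of the 4 conditions, and ribo-seq gave 3 libraries for each condition except ctrl DMSO, of which replicates 1 and 3 were used. Ribo-seq replicate 2 of ctrl DMSO was discarded by the authors as an outlier and was not analysed here.

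The library totals over the transcripts shared by all tables of an assay were 17047795 to 28910907 counts for RNA-seq and 669010 to 5284909 for ribo-seq, the lowest being ctrl DMSO replicate 3. Eif4e3, the target of the guides, was at 11.1 to 18.1 CPM (counts scaled to the library total) in the RNA-seq of ctrl and at 2.84 to 5.11 CPM in that of KO. Its footprints were at 12.4 to 22.5 CPM in ctrl and at 2.48 to 7.04 CPM in KO, so that no KO library reached a ctrl library in either assay. Of the neuroblastoma markers in the RNA-seq, Chgb was at 1356 to 1936 CPM and Tubb3 at 945 to 1432 CPM, but Th, the rate-limiting enzyme of catecholamine synthesis, was at 4.35 to 6.63 CPM. Of the fibroblast markers, Col1a1, Dcn and Pdgfra were listed, at no more than 0.404, 0.446 and 2.59 CPM, and of the blood markers Cd68 alone, at 1.33 to 4.07 CPM.

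Each ribosome carries a single copy of most of these proteins, and they are needed in matched amounts with those of the small subunit. Their mRNAs, like those of the small subunit and of the elongation factors, are known as TOP mRNAs, which begin at the cap with a C followed by a run of pyrimidines (the 5′ terminal oligopyrimidine tract). Their translation depends strongly on the kinase complex mTORC1, through the 4E-BPs, which sequester the cap-binding protein eIF4E1 when mTOR is inhibited, and through Larp1, which binds the cap and the tract. eIF4E3 is a cap-binding relative of eIF4E1 that the 4E-BPs do not sequester.

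The genome sequences around the annotated starts were read to show which of these genes have a run of pyrimidines nearby, at both ends of the ranking by Torin1 described below. The transcripts matched GENCODE mouse release 21 on GRCm38 by identifier (46 of 46, and 12703 of all 12759) and lie on 17 chromosomes. In a window from 20 nt before to 80 nt after the annotated start, the sense strand was searched for a C followed by nothing but C and T, at least 8 letters in all. Such a run began in the window of 34 of the 46 transcripts (73.9%), against 3458 of all matched transcripts (27.2%). This window was chosen after others had been looked at, and with 50 nt on either side of the start the counts were 25 (54.3%) and 3546 (27.9%). The window includes bases before the annotated start, and introns were not removed. Relative to that start the longest run began at -20 in Rpl12 and at 76 in Rpl24, for example. The annotated start need not be the start used in N2a cells, so a run away from it is a description of the genome sequence and not a mapped tract. In the 30 nt shown for each, all from GRCm38 and written 5′ to 3′ on the strand of the gene, capitals mark the longest run in the window. The first 6 are the 5 transcripts with the largest decrease of translation efficiency in ctrl and Rpl32, which had the fourth largest in KO, and the last 5 are those with the smallest decrease in ctrl.
Rpl27a, chr7:109519185-109519214, plus strand: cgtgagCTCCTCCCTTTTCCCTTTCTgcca
Rplp2, chr7:141447347-141447376, plus strand: gcggggCCTTCgcgctgcattttgggagct
Rpl36, chr17:56613410-56613439, plus strand: gccgttCTTCCTgtcccggccgccatcgga
Rplp0, chr5:115559474-115559503, plus strand: ctggttCTCCTataaaaggcacacgcgggc
Rpl10, chrX:74270851-74270880, plus strand: gagcgtCTCTTTTCCTCTggcgcggtgagt
Rpl32, chr6:115808727-115808756, minus strand: ccgccgCCTCTTCCTTCTTCCTCggcgctg
Rpl24, chr16:55966345-55966374, plus strand: gagattCTCTCCCTCTgccctataaggttc
Rpl5, chr5:107900566-107900595, plus strand: tccggtCTTTTTCCCCCTTagcgcggccga
Rpl27, chr11:101442288-101442317, plus strand: gcccgaCCCTCCCTgacgagctccttccgc
Rpl21, chr5:146832912-146832941, plus strand: gtccggCTCCacgcccgcgagggccccatt
Rpl38, chr11:114668574-114668603, plus strand: ctcgttCTTTCCCCgttctcttcggttctc

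Long and short runs stood at both ends of the order. Rpl27a had a run of 20 nt and Rpl32 one of 17 nt, but Rplp2 and Rplp0 had none longer than 5 nt. At the other end Rpl5 had 13 nt and Rpl21 had 4 nt. The members are short transcripts, with coding sequences (CDS) of 78 nt (Rpl41) to 1260 nt (Rpl4) and a median of 472.5 nt, against 1359 nt over all. Their annotated 5′ transcript leaders (5′ TL) ran from 17 to 2375 nt with a median of 91.5 nt, against 171 nt over all.

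In DMSO the 46 CDS held 3.965 to 5.28% of the RNA-seq counts of a library, and over all 12 RNA-seq libraries 3.95 to 5.28%. They held 5.63 and 4.97% of the footprints in ctrl DMSO and 5.26, 5.04 and 4.63% in KO DMSO. Per kb of CDS, RNA-seq levels in ctrl DMSO ran from 9.58 CPM per kb for Rpl21 to 6251 CPM per kb for Rplp1, one of the acidic proteins of the ribosomal stalk that are present in more than 1 copy. Footprint levels ran from 145 CPM per kb for Rpl22l1 to 38170 CPM per kb for Rpl41, which encodes the smallest ribosomal protein.

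**Figure D1:**
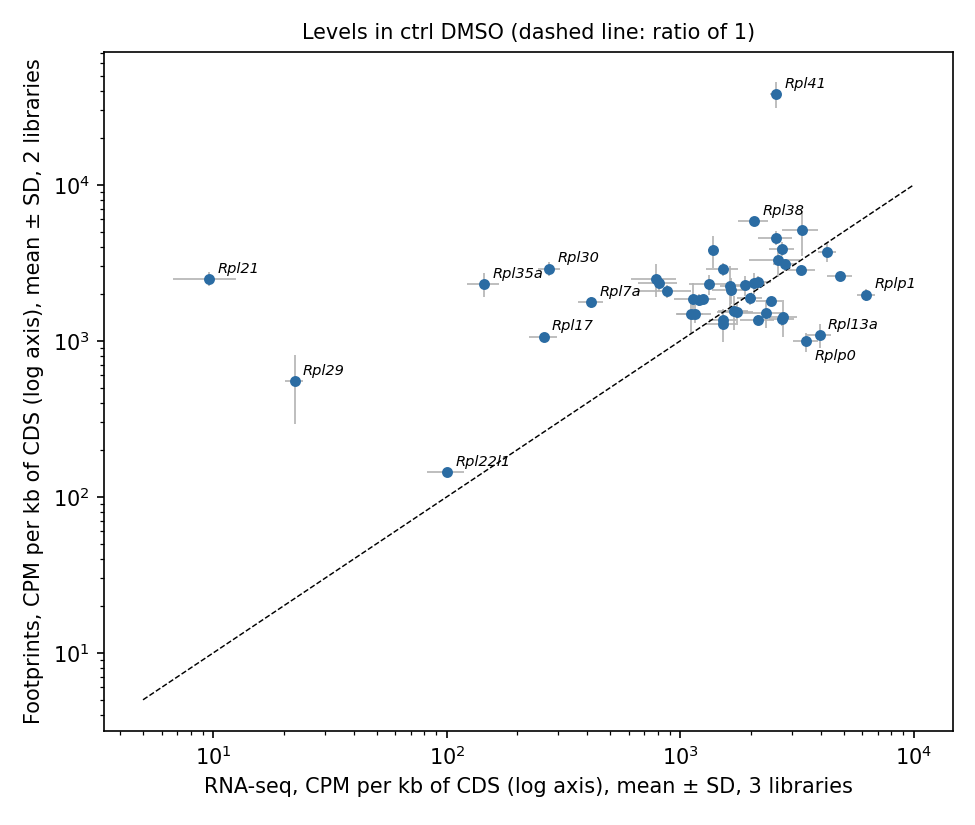
RNA-seq level (horizontal, mean and SD of 3 libraries) against footprint level (vertical, mean and SD of 2 libraries) of the 46 mRNAs in ctrl DMSO, in CPM per kb of CDS on log axes, with a dashed line where both are equal. Most members lie close together near the line, while Rpl21, Rpl29, Rpl35a, Rpl30, Rpl17 and Rpl7a lie far to the left with few RNA-seq counts for their footprints, and Rpl41 lies high.

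Translation efficiency (TE) is the ratio of the footprint level to the mRNA level of a transcript. As a level, the median TE of the members was 1.31 in ctrl DMSO and 1.40 in KO DMSO, against 0.893 and 0.862 over all transcripts, and 32 and 36 of the 46 were above the median of all. With Torin1 the median TE of the members was 0.423 in ctrl and 0.387 in KO, against 0.978 and 0.971 over all, and 13 of the 46 were above the median of all in each genotype. The members' median thus moved from percentile 71.3 to 13.3 of all transcripts in ctrl and from 76.2 to 13.0 in KO.

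The TE levels of single members are not comparable with each other. In ctrl DMSO they ran from 0.276 for Rpl13a to 259.5 for Rpl21, and the highest values belonged to members with very few RNA-seq counts. Rpl21 had 9.58 CPM per kb in the RNA-seq and 2485 CPM per kb in the footprints, and Rpl29 had 22.3 and 550. Reads that mapped to pseudogenes were removed before counting in both assays, RNA-seq and ribo-seq, and these genes have many pseudogenes. The part of this in the low RNA-seq counts was not tested. The comparisons below are between conditions within 1 transcript.

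Torin1 lowered the translation of nearly the whole set. In ctrl, footprints fell on all 46 members, by a median of 2.02 on the log2 scale (4.05-fold), and the fall ran from 1.76-fold for Rpl38 to 9.05-fold for Rpl27a (edgeR quasi-likelihood test with Benjamini-Hochberg adjustment, adjusted p under 0.05 for each). Over all transcripts tested, 9.93% had lower footprints by the same test. In KO, footprints again fell on all 46, by a median of 2.07 on the log2 scale (4.203-fold), from 1.55-fold for Rpl21 to 11.03-fold for Rpl27a, against 22.1% lower of all transcripts. These values are relative to the total of each library, so a change shared by all mRNAs would not be seen, and fewer cells of a kind cannot be told apart from less RNA per cell.

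The share of all footprints that fell on the 46 CDS dropped to 2.01, 1.75 and 1.68% in the 3 ctrl Torin1 libraries and to 1.72, 1.76 and 1.57% in the 3 KO Torin1 libraries. All 6 Torin1 libraries lay below all 5 DMSO libraries. For single members, every ctrl Torin1 library was below every ctrl DMSO library for 46 of 46, a pattern that 13.2% of all transcripts showed. In KO this held for 45 of 46 and for 16.7% of all transcripts, Rpl21 being the exception.

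TE fell with Torin1 for 44 of the 46 members in ctrl, with a median log2 change of -1.78 (3.43-fold lower) and a range of -2.88 to -0.51, against 4.32% of all transcripts with lower TE. Rpl38 and Rpl21 did not pass the test. In KO, TE fell for 45 of the 46, with a median log2 change of -2.06 (4.16-fold lower) and a range of -3.38 to -0.44, against 17.8% of all transcripts. There Rpl21 alone did not pass. No member rose in either genotype. Over all transcripts the median log2 change of TE was -0.01 in both genotypes. Without scaling beyond library size, the split of all calls moved from 451 lower and 41 higher to 327 lower and 162 higher in ctrl, and from 1875 lower and 1106 higher to 1230 lower and 2526 higher in KO, while the members called were all still lower (41 in ctrl and 45 in KO). For footprints the same step moved the split from 1062 lower and 608 higher to 684 and 1691 in ctrl, and from 2391 and 1999 to 1532 and 3766 in KO, with all 46 members lower in each.

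**Figure D2:**
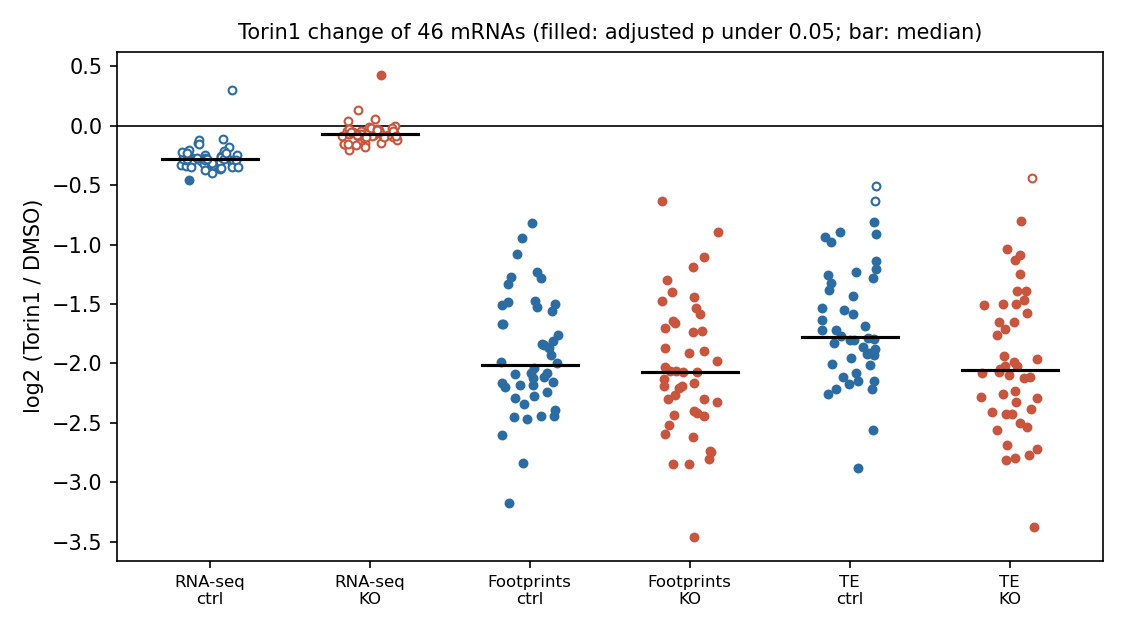
Log2 change with Torin1 (vertical) of each of the 46 mRNAs in RNA-seq, footprints and TE, in ctrl (blue) and KO (red), 1 point per mRNA, filled where the adjusted p is under 0.05, with a bar at the median. RNA-seq changes gather near 0 (medians -0.28 and -0.07), and footprint and TE changes gather near -2 with members down to -3.46.

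**Figure D3:**
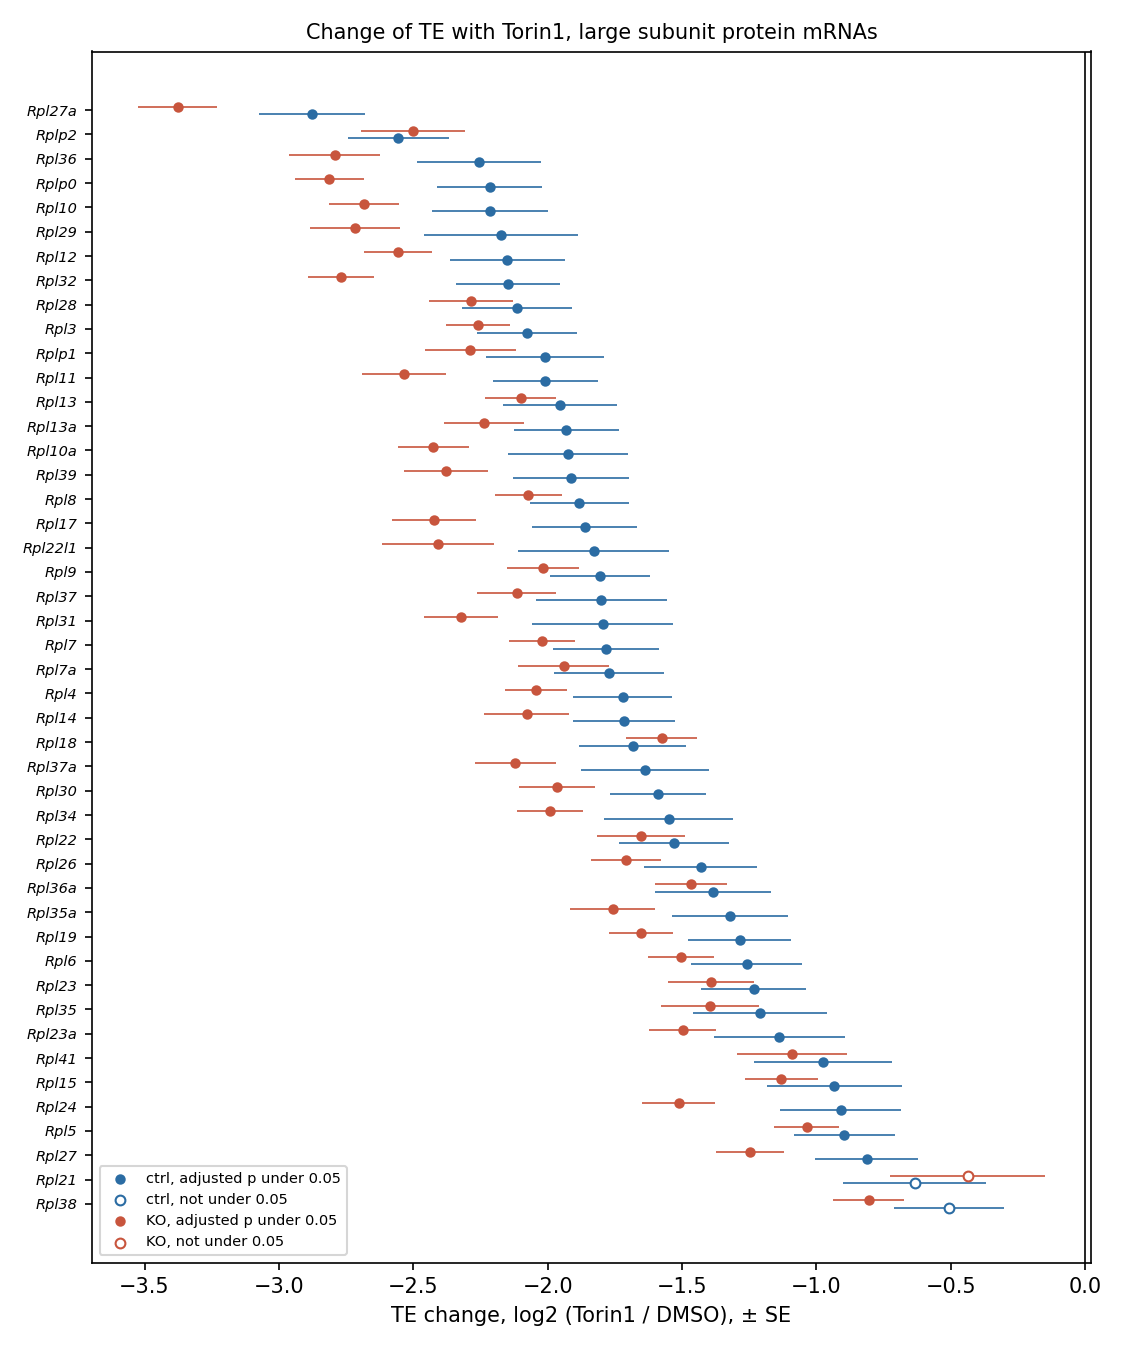
Log2 change of TE with Torin1 (horizontal) with its SE for each mRNA, in order of the change in ctrl, with ctrl in blue and KO in red and open points where the adjusted p is not under 0.05. Rpl27a stands at one end in both genotypes (-2.88 and -3.38) and Rpl38 and Rpl21 at the other.

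Rpl27a, a universally conserved protein of the large subunit, had the largest decrease in both genotypes. Its footprints were at 1172 and 937 CPM in the 2 ctrl DMSO libraries and at 154, 129 and 125 CPM in the 3 ctrl Torin1 libraries. In KO they were at 996, 868 and 901 CPM with DMSO and at 87.3, 100.2 and 112 CPM with Torin1. Every Torin1 library was far below every DMSO library. Its RNA-seq level was 994, 974 and 806 CPM in ctrl DMSO and 819, 758 and 764 CPM in ctrl Torin1, and did not pass the test. The log2 change of TE was -2.88 ± 0.20 (SE, adjusted p = 1.18e-08) in ctrl and -3.38 ± 0.15 (adjusted p = 2.39e-14) in KO, and the transcript kept the first rank under every alternative tried and without any single library.

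The stalk of the large subunit, which recruits the GTPases of translation, fell as a whole. All 4 of its proteins fell in TE in both genotypes, with a median log2 change of -2.18 in ctrl and -2.53 in KO. Rplp2, an acidic stalk protein, had a log2 change of TE of -2.56 ± 0.19 in ctrl, the second largest decrease, and of -2.50 ± 0.19 in KO. Its footprints were at 1165 and 1411 CPM in ctrl DMSO and at 234, 198 and 195 CPM in ctrl Torin1. Rplp0, which anchors the acidic proteins, had -2.22 ± 0.19 in ctrl and -2.81 ± 0.13 in KO, where it ranked second. Its footprints went from 1037 and 852 CPM to 214, 194 and 197 CPM in ctrl, and from 924, 856 and 857 CPM to 132, 148 and 157 CPM in KO. Rplp1, the partner of Rplp2, had -2.01 and -2.29. Rpl12, at the base of the stalk, had -2.15 and -2.56. Its footprints went from 830 and 577 CPM to 167, 160 and 177 CPM in ctrl, and the 3 KO Torin1 libraries were at 121, 122 and 120 CPM.

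The other functional groups covered most of the range. The 3 proteins near the peptidyl transferase centre all fell in both genotypes, with medians of -2.08 and -2.26. Rpl10, which joins the subunit late in its maturation, had log2 changes of TE of -2.21 ± 0.22 in ctrl and -2.68 ± 0.13 in KO. Rpl3 had -2.08 and -2.26, and Rpl8 had -1.88 and -2.07. Rpl10a, the protein of the mobile L1 stalk at the exit of tRNA, had -1.92 and -2.43. Of the 10 proteins that line the nascent peptide tunnel or surround its exit, 9 fell in ctrl and 10 in KO, with medians of -1.48 and -1.68. The values were -1.91 and -2.38 for Rpl39, -1.86 and -2.42 for Rpl17, -1.80 and -2.32 for Rpl31, -1.72 and -2.04 for Rpl4, -1.53 and -1.65 for Rpl22, -1.43 and -1.71 for Rpl26, -1.21 and -1.39 for Rpl35 and -1.14 and -1.50 for Rpl23a, and Rpl38 stood last. The calls of Rpl35 and Rpl23a in ctrl were lost without ribo-seq ctrl DMSO replicate 1 (-0.97 and -1.03). The 3 proteins that form bridges to the small subunit all fell, with medians of -0.98 and -1.51. Rpl19 had -1.29 and -1.65, Rpl24 had -0.91 and -1.51, and Rpl41 had -0.98 and -1.09.

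Rpl5 and Rpl11, which enter the ribosome together with 5S rRNA and as a complex can bind Mdm2, lay far apart. Rpl11 had log2 changes of TE of -2.01 ± 0.19 in ctrl and -2.53 ± 0.16 in KO. Rpl5 had -0.90 ± 0.19 (adjusted p = 0.00482) and -1.04 ± 0.12. The footprints of Rpl11 went from 2253 and 1934 CPM to 551, 465 and 424 CPM in ctrl and from 2158, 1773 and 1431 CPM to 342, 354 and 341 CPM in KO. Those of Rpl5 went from 2395 and 2749 CPM to 1457, 1410 and 1373 CPM in ctrl and from 2559, 2561 and 2250 CPM to 1467, 1324 and 1268 CPM in KO. In both mRNAs the Torin1 libraries lay below all DMSO libraries of their genotype.

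The paralogs Rpl22 and Rpl22l1 both fell. Rpl22 had log2 changes of TE of -1.53 and -1.65, with footprints of 979 and 798 CPM in ctrl DMSO and of 313, 279 and 294 CPM in ctrl Torin1. Rpl22l1 had -1.83 and -2.41, with footprints of 51.5 and 55.3 CPM in ctrl DMSO and of 24.1, 23.3 and 16.3 CPM in ctrl Torin1. Rpl13a, known also as an inhibitor of translation released from the ribosome after gamma interferon, had -1.93 and -2.24. The 18 members whose protein families are present in all domains of life all fell in both genotypes (medians -1.87 and -2.15), and of the other 28, 26 fell in ctrl and 27 in KO (medians -1.66 and -1.98). That difference was not tested.

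The weakest responses came from Rpl38 and Rpl21. Rpl38, a protein near the tunnel exit that is required for patterning of the axial skeleton, had footprints of 1301 and 1187 CPM in ctrl DMSO and of 947, 832 and 679 CPM in ctrl Torin1. In KO they were 1341, 1412 and 1228 CPM and 890, 870 and 782 CPM. The groups did not overlap, and the log2 change of its footprints was -0.82 ± 0.15 in ctrl and -0.90 ± 0.10 in KO, both called. The log2 change of its TE was -0.51 ± 0.21 (adjusted p = 0.204) in ctrl and -0.81 ± 0.13 (adjusted p = 4.94e-05) in KO.

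Rpl21 had footprints of 1113 and 1287 CPM in ctrl DMSO and of 784.5, 695 and 678 CPM in ctrl Torin1. In KO it had 1253, 1444 and 841 CPM with DMSO and 1185, 816 and 710 CPM with Torin1, and these groups overlapped. Its log2 change of footprints was -0.95 ± 0.14 in ctrl and -0.63 ± 0.15 in KO, both called, though the call in KO was lost with DESeq2 (adjusted p = 0.127), and that of TE was -0.63 ± 0.27 (adjusted p = 0.22) and -0.44 ± 0.29 (adjusted p = 0.276). Its RNA-seq counts were the lowest of the set, 62 to 143 per library, and the SE of its TE was among the largest.

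**Figure D4:**
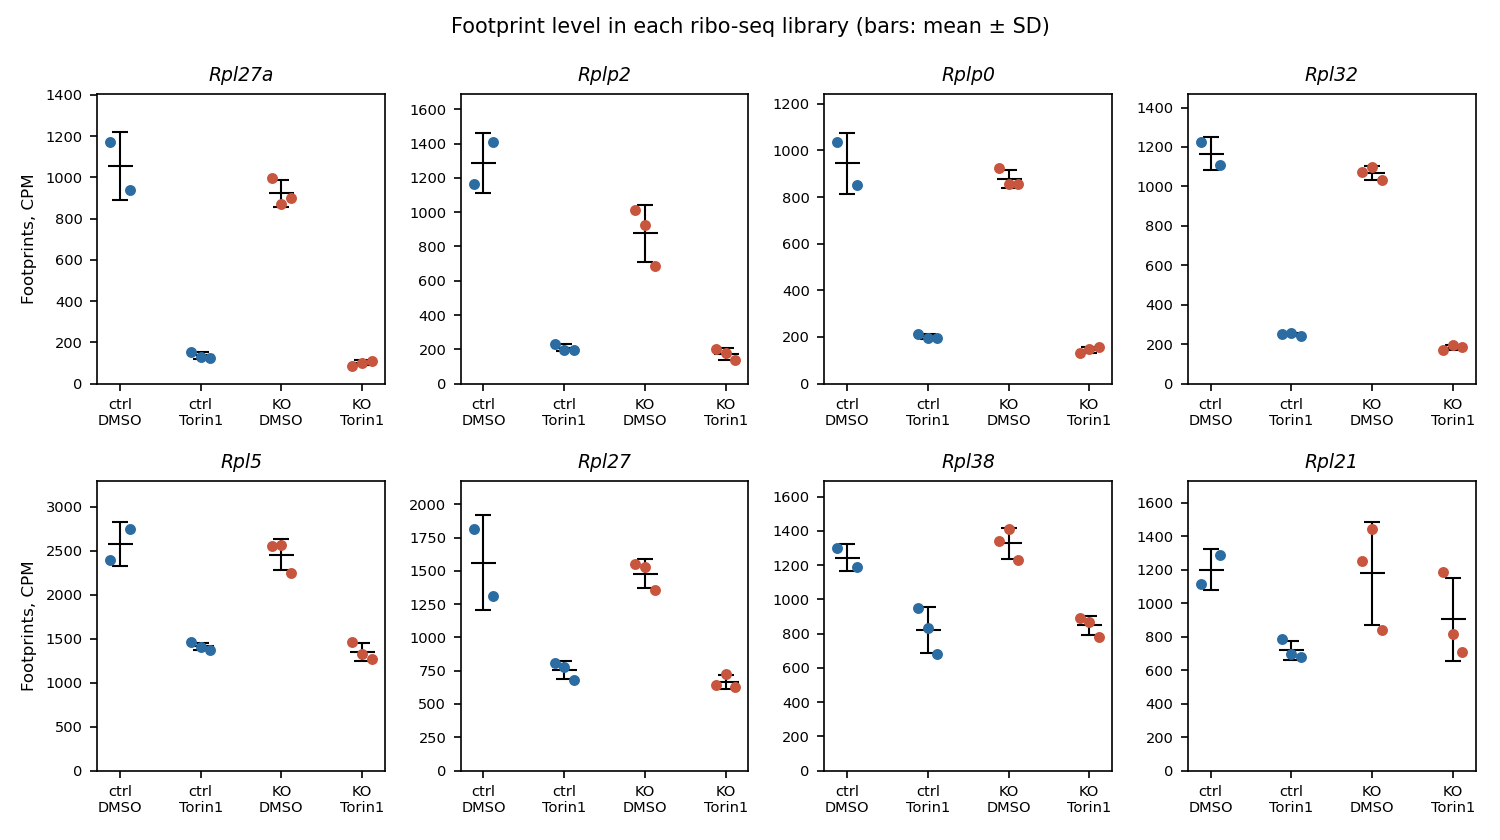
Footprint level in CPM (vertical, from 0) in each ribo-seq library of the 4 conditions for 8 mRNAs, with points for libraries and bars for the mean and SD. Rpl27a, Rplp2, Rplp0 and Rpl32 in the upper row fall to a small part of their DMSO level with Torin1, while Rpl5, Rpl27, Rpl38 and Rpl21 in the lower row keep a larger part, and the KO groups of Rpl21 overlap.

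Next to them in the order came Rpl27 (-0.81 in ctrl and -1.25 in KO), Rpl15 (-0.93 and -1.13), and Rpl41, Rpl24 and Rpl5. Rpl15, Rpl24 and Rpl41 passed the test in ctrl (adjusted p = 0.0334, 0.0193 and 0.0298), but each lost the call under 1 of 7 alternatives and in several of the 11 fits that leave out 1 library (called in 5, 7 and 5 of them). Without ribo-seq ctrl DMSO replicate 1 the log2 changes of Rpl15 and Rpl24 were -0.66 and -0.68, and without replicate 3 that of Rpl41 was -0.78. The calls of Rpl15 and Rpl41 were also lost without RNA-seq ctrl DMSO replicate 1, those of Rpl15 and Rpl24 without RNA-seq ctrl Torin1 replicate 1, those of Rpl15 and Rpl41 without RNA-seq ctrl Torin1 replicate 2, that of Rpl41 without RNA-seq ctrl Torin1 replicate 3, and all 3 without ribo-seq ctrl Torin1 replicate 2 or 3. Rpl27 lost its call without ribo-seq ctrl DMSO replicate 1 (-0.55) or ctrl Torin1 replicate 3 (-0.74). In KO the calls of all 3 held under all of these. Beside Rpl27a, Rplp2, Rplp0 and Rpl10, the large decreases included those of Rpl36 (-2.26 and -2.79), Rpl29 (-2.18 and -2.72) and Rpl32 (-2.15 and -2.77).

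The order of the members was much alike in ctrl and KO, which share no library. Over the 46 transcripts the log2 changes of TE in ctrl and in KO had a Spearman rho of 0.946 and a Pearson r of 0.950, a description over genes measured in common libraries. Of the 5 largest decreases 3 were shared (Rpl27a, Rpl36 and Rplp0), and of the 5 smallest 3 were shared (Rpl21, Rpl38 and Rpl5). Of the 10 largest 8 were shared and of the 10 smallest 9. The rank of a member differed by 3 places in the median, by at most 9 (Rpl37a), and by no more than 5 for 34 members. Most neighbours in the order could not be told apart. The gap to the next member was larger than the combined SE of the pair in 2 of 45 cases in ctrl and 3 of 45 in KO. With 45 gaps in a range of 2.37 in ctrl and 2.94 in KO, most gaps had to be small. Rpl27a had the largest gap in both, 0.32 to Rplp2 in ctrl (combined SE 0.27) and 0.57 to Rplp0 in KO (combined SE 0.20). The gaps come from the values that made the order and do not test it. A gap over 1 combined SE does not by itself separate a pair. The SE of a member was 0.18 to 0.29 in ctrl and 0.12 to 0.29 in KO. The combined SE took neighbours as independent, though all were measured in the same libraries.

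Features of the transcripts that the ranking did not use followed it weakly. Over the 46 transcripts the Spearman rho of the log2 change of TE was -0.12 in ctrl and -0.05 in KO with CDS length, 0.13 and 0.16 with the length of the annotated 5′ TL, -0.07 and 0.01 with the number of exons, and -0.01 and -0.09 with the length of the longest run. The 34 members with a run of at least 8 nt had median changes of -1.75 and -2.06, and the 12 without had -1.85 and -2.14. The TE level in DMSO of the other genotype, taken so as not to use the same libraries, had a rho of 0.51 with the change in ctrl and of 0.40 with that in KO. The low RNA-seq counts described above enter that level, so no order of the members is read from it.

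Other mRNAs of the translation machinery were counted in the same fits. Of 34 small subunit mRNAs, 33 fell in TE in ctrl and 33 in KO, with medians of -1.59 and -1.92. All 5 elongation factor subunits fell, with medians of -2.08 and -2.31. Of 23 measured assembly factors of the large subunit, which act in the nucleus and cytoplasm but are not part of the ribosome, 1 fell and 0 rose in ctrl, 4 fell and 3 rose in KO, and the medians were 0.20 and 0.08. Of 49 proteins of the large subunit of the mitochondrial ribosome, 3 fell in ctrl and 20 in KO, with medians of -0.11 and -0.30. Over all transcripts tested, 4.32% fell in ctrl and 17.8% in KO, while 41 of 10432 and 1106 of 10535 rose. The median of the 46 members lay outside the range of the assembly factors (lowest -1.12 in ctrl and -0.99 in KO) and of the mitochondrial proteins (lowest -1.21 and -1.09) in both genotypes. These are counts and ranges, and no test between lists was made. Counts in ctrl and KO are not comparable as strength of response. The median SE of a member was 0.21 in ctrl, with 2 DMSO ribo-seq libraries, and 0.14 in KO, with 3.

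Paralogs of members that are outside the list had small changes of TE. Rpl36al, a paralog of Rpl36a, had log2 changes of TE of -0.51 (adjusted p = 0.138) in ctrl and -0.59 (adjusted p = 0.000437) in KO. Rpl39l had -0.11 and -0.20 and Rpl7l1 had 0.20 and 0.31, none of them called. By the edgeR quasi-likelihood test the footprints of Rpl36al fell in both genotypes. Their log2 changes were -0.92 (adjusted p = 0.000121) in ctrl and -0.78 (adjusted p = 2.47e-07) in KO. The footprints of Rpl39l and Rpl7l1 were not called. Rpl3l was listed in 2 RNA-seq tables only, and Rpl10l and Rpl26l1 in no table. Processed copies of Rpl10, Rpl36a and Rpl9 (Rpl10-ps3, Rpl36a-ps1 and Rpl9-ps6) were listed in all 8 tables, so reads of those 3 members are uncertain where the copies are near identical.

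The mRNA levels moved far less than the footprints. In ctrl, 45 of the 46 RNA-seq changes with Torin1 were below 0, with a median log2 change of -0.28. Rpl27 alone passed the test, against 0.675% lower of all transcripts. Of the 46 members, 15 had an unadjusted p under 0.05, against 2516 of 10958 transcripts overall in either direction. Rpl27 was at 558, 599 and 545 CPM in ctrl DMSO and at 435, 424 and 428 CPM in ctrl Torin1, a log2 change of -0.46 ± 0.11 (adjusted p = 0.0459). Its groups did not overlap, and for 15 of the 46 members every ctrl Torin1 library was below every ctrl DMSO library, against 11.8% of all transcripts. In KO no member had all 3 Torin1 libraries below the DMSO libraries, against 13.2% of all transcripts.

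The count in ctrl depended on 1 library. Without RNA-seq ctrl DMSO replicate 3, in which the members took 4.13% of the counts against 4.82 and 5.28% in the other two, 23 members were called lower, against 5.21% of all transcripts in that fit, and the median was -0.40. Without ctrl DMSO replicate 2 the median was -0.16. Without ctrl DMSO replicate 1, or without any 1 of the ctrl Torin1 replicates, none was.

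Rpl22l1 was the 1 member whose mRNA was called higher. It went from 30.8, 34.7 and 36.7 CPM in KO DMSO to 50.2, 43.7 and 45.8 CPM in KO Torin1, a log2 change of 0.43 ± 0.10 (adjusted p = 0.0175), and 6.23% of all transcripts were called higher in that comparison. In ctrl it had 43.9, 36.3 and 30.5 CPM with DMSO and 50.2, 49.2 and 42.1 CPM with Torin1, which overlapped (log2 change 0.30 ± 0.15, adjusted p = 0.259). In KO its call was lost in the fit of all 4 conditions and in 3 of the 6 fits without 1 library (without KO DMSO replicate 1, KO Torin1 replicate 1 or KO Torin1 replicate 3). Of the 46 members, 42 had RNA-seq changes below 0 in KO, with a median log2 change of -0.07 (0.0049 without KO DMSO replicate 2) and none called lower.

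Between KO and ctrl cells with DMSO no member was called in any assay (edgeR quasi-likelihood test with Benjamini-Hochberg adjustment). For RNA-seq, 0.0183% of all transcripts were called. The members had a median log2 difference of -0.23 (KO against ctrl), and all 46, measured in the same libraries, were below 0. An unadjusted p under 0.05 was found for 6 members (0 called with DESeq2 or the edgeR exact test) and for 646 of 10924 transcripts. The mean level of Rpl13a, for example, was 2414 ± 296 CPM (SD, n = 3) in ctrl and 1893 ± 136 CPM (SD, n = 3) in KO. Without 1 library the median ran from -0.13 (without ctrl DMSO replicate 2) to -0.35 (without ctrl DMSO replicate 3). With the replicate number as a block, 2.47% of all transcripts and 14 members were called lower in KO: Rpl9, Rpl10a, Rpl13a, Rpl15, Rpl17, Rpl18, Rpl19, Rpl27, Rpl28, Rpl32, Rpl36, Rpl41, Rplp0 and Rplp2. For footprints, 0.0279% of all transcripts were called and the members had a median of -0.06. Here 3 members (0 called with DESeq2 or the edgeR exact test) and 850 of 10757 transcripts had an unadjusted p under 0.05. For TE, 0% of all transcripts were called (416 had an unadjusted p under 0.05, and DESeq2 and limma-voom called 0) and the members had a median of 0.17, with 39 above 0 and 1 at an unadjusted p under 0.05, Rpl39 (0.56 ± 0.21, adjusted p = 0.978). The RNA-seq difference enters that of TE with the opposite sign. The medians of footprints and TE rested on the 2 ctrl DMSO ribo-seq libraries. Without replicate 1 they were 0.083 for footprints and 0.30 for TE, and without replicate 3 they were -0.20 and 0.049. The TE median was also 0.069 without RNA-seq ctrl DMSO replicate 2 and 0.29 without replicate 3.

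With Torin1, footprints were lower in KO than in ctrl for 6 members, against 4.01% lower of all transcripts, and the median log2 difference of the 46 was -0.18 (-0.11 without ribo-seq ctrl Torin1 replicate 1). The 6 were Rpl12 (-0.48 ± 0.12, adjusted p = 0.00697), Rplp0 (-0.48 ± 0.11, adjusted p = 0.00621), Rpl11 (-0.48 ± 0.10, adjusted p = 0.00314), Rpl32 (-0.46 ± 0.11, adjusted p = 0.00545), Rpl27a (-0.46 ± 0.13, adjusted p = 0.0233) and Rpl8 (-0.42 ± 0.10, adjusted p = 0.00546). In Rpl32, for example, the ctrl Torin1 libraries were at 249, 258 and 242 CPM and the KO Torin1 libraries at 170, 193 and 184 CPM. For Rpl8 they were at 543, 508 and 524 CPM and at 401, 398 and 381 CPM, and with DMSO, where the test was not passed, at 2047 and 2004 CPM in ctrl and at 1572, 1494 and 1465 CPM in KO (log2 difference -0.42 ± 0.14, adjusted p = 0.529). For all 6, every KO Torin1 library was below every ctrl Torin1 library, as for 14 of the 46 members and for 12.5% of all transcripts. The call of Rpl27a was lost under 2 of 7 alternatives (adjusted p up to 0.0554) and without ribo-seq ctrl Torin1 replicate 1 (-0.37), KO Torin1 replicate 1 (-0.37) or KO Torin1 replicate 2 (-0.45), and the other 5 kept theirs in all of these.

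TE with Torin1 was lower in KO for 3 members, against 2.46% lower of all transcripts, with a median log2 difference of -0.17 over the 46 (-0.11 without ribo-seq ctrl Torin1 replicate 1) and 35 of them below 0. They were Rpl11 (-0.49 ± 0.11, adjusted p = 0.0146), Rpl12 (-0.43 ± 0.11, adjusted p = 0.026) and Rpl32 (-0.40 ± 0.11, adjusted p = 0.0339). With the replicate block 3.8% of all transcripts and 8 members were called lower, the further 5 being Rpl8, Rpl24, Rpl34, Rpl37 and Rplp0, but in the fit of all 4 conditions none was. In the fits without 1 library the count fell to 1 without ribo-seq KO Torin1 replicate 2, RNA-seq ctrl Torin1 replicate 2 or RNA-seq KO Torin1 replicate 1, and Rpl11 kept its call in all 12, Rpl12 in 7 and Rpl32 in 4. In RNA-seq with Torin1, 1.96% of all transcripts and 0 members were called between KO and ctrl. The median log2 difference was -0.03 (-0.08 without KO Torin1 replicate 1). Unadjusted p was under 0.05 for 6 members (0 called with DESeq2 or the edgeR exact test) and for 1954 of 11007 transcripts. With the replicate block, Rpl9, Rpl13a, Rpl15, Rplp0 and Rplp1 were called lower there, against 4.58% of all transcripts, and Rpl36a and Rpl37 higher, against 4.88%.

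**Figure D5:**
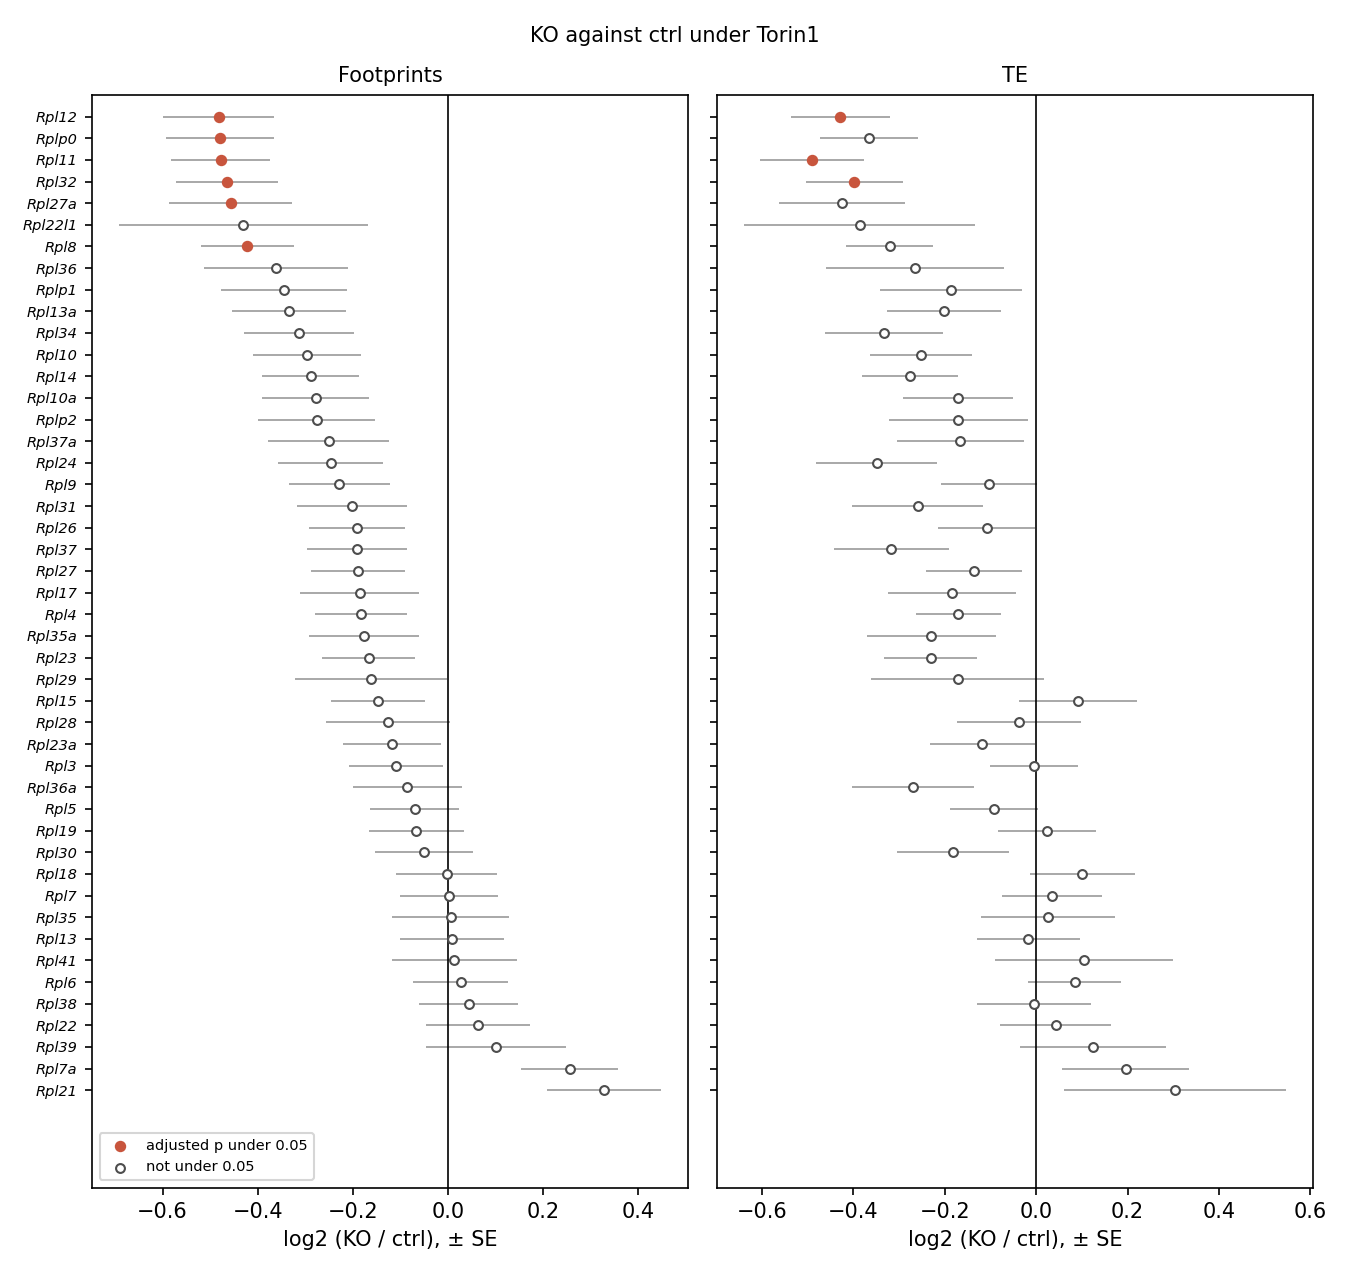
Log2 difference between KO and ctrl with Torin1 (horizontal) with its SE, for footprints (left) and TE (right), for the 46 mRNAs in order of the footprint difference, filled where the adjusted p is under 0.05. The 6 filled points on the left and the 3 on the right lie between -0.49 and -0.40, and Rpl7a and Rpl21 lie furthest above 0.

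Whether the response to Torin1 itself differed between the genotypes was tested as the interaction of genotype and treatment, and no member was called. For RNA-seq, 0% of all transcripts were called (108 had an unadjusted p under 0.05, and DESeq2 called 0), and the interaction was above 0 for all 46 members with a median of 0.22 on the log2 scale and 1 unadjusted p under 0.05 (Rpl27, 0.30 ± 0.12, adjusted p = 0.999). For footprints, 0.113% of all transcripts were called (DESeq2 called 39 transcripts and 0 members). The members had a median of -0.11, and 3 of them had an unadjusted p under 0.05, against 731 of 10662 transcripts. Without ribo-seq ctrl DMSO replicate 1 or 3 that median was -0.24 or 0.0030, and without RNA-seq ctrl DMSO replicate 2 or 3 the RNA-seq median was 0.098 or 0.32. For TE, 0% of all transcripts were called (600 had an unadjusted p under 0.05, limma-voom called 0, and DESeq2 called 16 transcripts and 0 members), and 43 of the 46 members were below 0 with a median of -0.30 and 4 unadjusted p under 0.05, those of Rpl32 (-0.60 ± 0.22, adjusted p = 0.702), Rplp0 (-0.57 ± 0.22), Rpl24 (-0.58 ± 0.27) and Rpl17 (-0.54 ± 0.26). The TE median ran from -0.42 to -0.20 without 1 library. TE is footprints over mRNA, so the RNA-seq interaction (median 0.22) enters that of TE with the opposite sign, beside the footprint median of -0.11. All members were measured in the same libraries, so the counts above or below 0 are not 46 independent results.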

How the data were processed

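N2a cells, ctrl or KO for Eif4e3, were treated with DMSO or Torin1 and measured by stranded RNA-seq of total RNA and by ribo-seq after cycloheximide and RNase I. Reads were aligned to mm10 with HISAT2 by the authors, who then discarded those in rRNA, tRNA and pseudogenes and aligned the rest to 1 Ensembl transcript per gene with bowtie2. What they deposited is raw counts per CDS in 8 tables (for ribo-seq, P-sites predicted with riboWaltz), with no normalization. Versions of their tools are not given in the sources used here. The log2 fold change, log2 CPM, p-value and FDR columns of the authors' edgeR tests in these tables, and 2 tables of TE and its tests, were not used.

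Members were found by symbol, the first part of the row name. Members, lists and tests were chosen with earlier results of these data known. The named genes are the 5 largest and 5 smallest TE decreases per genotype, members that failed the TE test, members called in RNA level or between genotypes, and members with a set role.

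Each pair of conditions was fitted over all transcripts that exceeded 1 CPM in every library of 1 condition or both, with edgeR 4.0.16 in R 4.3.3 (TMM, glmQLFTest, Benjamini-Hochberg, threshold 0.05). TE was the assay by condition term in 1 model of both assays, scaled within each. The SE of a log2 change is its absolute value divided by the square root of the quasi-likelihood F statistic. KO against ctrl in DMSO used a table in which 2 RNA-seq columns per genotype carry the same number, taken as unnumbered replicates, and its block and left-out fits used the numbered counts of the other tables. Alternatives were DESeq2 1.42.0, limma-voom (limma 3.58.1), the edgeR exact test, other scalings and filters, the fit of all 4 conditions and each library left out. The fits of Torin1 in each genotype and of KO against ctrl with Torin1 were run on simulated counts. These held known changes, equally many up and down, and the outcome is not given here. KO against ctrl with DMSO and the interaction were not simulated. Sequences and lengths came from GENCODE mouse release 21 (pysam 0.24.0), and figures were drawn with matplotlib 3.10.9 in Python 3.11.15.

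Depth limits precision to counting error at best. The lowest member count per library was 62 to 143 for RNA-seq (Rpl21) and 19 to 270 for ribo-seq (Rpl22l1). The block takes libraries of the same replicate number as paired, as the replicates were different passages. The sample titles give the number alone, so a passage shared by ctrl and KO of the same number is an assumption. After the condition means were removed, r across transcripts between libraries of the same number and treatment was 0.0272 to 0.694 for RNA-seq (other numbers -0.548 to 0.387) and -0.0379 to 0.0625 for ribo-seq (other numbers -0.124 to 0.124), so the ribo-seq counts themselves showed no pairing between genotypes. Between the treatments of 1 genotype, r for the same number was 0.0599 to 0.217 for RNA-seq (other numbers -0.229 to 0.0487). For ribo-seq it was -0.00409 to 0.143 (other numbers -0.143 to 0.0442). Within a condition, r of log2(CPM + 1) was 0.984 to 0.997 for RNA-seq and 0.955 to 0.986 for ribo-seq. Some further genes are not reported here.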

Additional observations from a re-analysis of the deposited data

How the results depend on the processing

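The 28 summary results were counts of members called and medians. A count was kept within 1.5 times, and a median if it moved by less than the median SE of a single member. A median near 0 could thus change sign and be kept. That of footprints for KO against ctrl with DMSO ran from -0.20 to 0.083 with 1 library left out. Of all values, 177 of 191 under alternatives and 216 of 232 with 1 library left out were kept. Of the member changes of TE with Torin1, 641 and 1037 kept their side of the threshold, 3 and 20 lost their call, 1 gained one with a library left out, and none changed sign. Of the member changes of footprints with Torin1, 1149 kept their call and 1 lost it (Rpl21 in KO, DESeq2). Without scaling beyond library size, the median of all transcripts shifted by up to 0.26, and the members' medians with Torin1 became -1.83 for TE in KO, -1.82 for footprints in KO and -1.80 for footprints in ctrl. In the fit of all 4 conditions, RNA-seq with Torin1 gave 0 members higher in KO and 2 lower in ctrl. Members with lower TE in KO than in ctrl under Torin1 numbered 5 with DESeq2, 5 without scaling, 1 with limma-voom, 0 in the fit of all 4 conditions and 8 with the replicate block. The block, which pairs libraries of the same replicate number, also gave 14 members lower in RNA-seq of KO against ctrl with DMSO. With Torin1 it gave 5 lower and 2 higher in RNA-seq of KO against ctrl, and 1 higher (Rpl21) in footprints. It moved no other count of members by over 1.5 times. Over all transcripts it raised RNA-seq calls from 2 to 866 (KO against ctrl, DMSO), 216 to 1041 (Torin1), 299 to 1328 (Torin1 in ctrl) and 1097 to 1797 (in KO), and TE calls of KO against ctrl with Torin1 from 314 to 550, and the fit of all 4 conditions gave 19, 6, 1221, 558 and 73 for the same 5.

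With 1 library left out, RNA-seq members with Torin1 numbered 0 to 23 lower in ctrl, 0 to 2 higher and 0 to 1 lower in KO. Between KO and ctrl with Torin1, 0 to 1 were lower in RNA-seq, 1 to 3 lower in TE and 0 to 1 higher in footprints. The footprint median with Torin1 in ctrl ran from -2.13 to -1.78, and its smallest decrease came without ribo-seq ctrl DMSO replicate 1, which leaves that group with replicate 3, the shallowest library, assumed to vary like the others. TE fell for 39 to 45 members in ctrl and for 45 in KO. Causes were not tested.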
